A study of Mus musculus with 6 samples.

Results

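Bile acid genes were examined in liver from male C57BL/6 mice, an inbred strain, reared for 71 weeks. The set holds 32 genes of bile acid synthesis, transport and feedback, picked by symbol from the 55802 distinct symbols in the count files. All 32 were listed, and 30 passed the filter on low counts; Slc51b and Gpbar1 did not. Control libraries (3) came from mice on normal chow, and PS-MP libraries (3) from mice on chow that contained polystyrene microplastic (PS-MP), small particles of a common plastic. The labels name no engineered allele in either group. The labels list the diet of each sample, although their treatment text names PS-MP chow for the controls too. The sources used here do not state particle size, dose or the age at which feeding began. Whether each replicate is its own animal is not in the labels, and the p-values speak of the spread among these libraries, which may be technical.

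The liver turns cholesterol into bile acids, detergents that carry fat through the gut and remove cholesterol from the body. In the classical route, Cyp7a1 first hydroxylates the sterol ring, and in the alternative route Cyp27a1 first oxidises the side chain. Hepatocytes send bile acids into bile through the canalicular membrane and take most of them up again from portal blood. Bile acids damp their own synthesis through the receptor FXR (Nr1h4) and the repressor SHP (Nr0b2), and through a gut hormone sensed by Fgfr4 and its partner Klb.

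Promoter sequences are given first for 3 genes of this loop whose regulation is well described: the repressor Nr0b2, the export pump Abcb11 and the enzyme Cyp8b1. RefSeq promoter windows (GRCm38.p6) were used for 22 of the 32 genes, and the 250 bases before each annotated start were searched on both strands for 7 motifs. Any window of a bile acid gene on a chromosome that was set aside was left out, which was not done for the shares over all windows. Capitals mark matches, each line runs 5′ to 3′ on the gene's strand, and the genome build is earlier than that of the counts. Nr0b2 lies at chr4:133553126-133553375 (plus strand), Abcb11 at chr2:69342617-69342866 (minus strand) and Cyp8b1 at chr9:121916306-121916555 (minus strand).
Nr0b2: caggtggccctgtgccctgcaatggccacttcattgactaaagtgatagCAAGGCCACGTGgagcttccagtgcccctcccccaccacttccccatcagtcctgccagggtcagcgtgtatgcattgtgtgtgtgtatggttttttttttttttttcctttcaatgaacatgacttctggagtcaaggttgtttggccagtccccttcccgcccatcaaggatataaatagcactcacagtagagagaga
Abcb11: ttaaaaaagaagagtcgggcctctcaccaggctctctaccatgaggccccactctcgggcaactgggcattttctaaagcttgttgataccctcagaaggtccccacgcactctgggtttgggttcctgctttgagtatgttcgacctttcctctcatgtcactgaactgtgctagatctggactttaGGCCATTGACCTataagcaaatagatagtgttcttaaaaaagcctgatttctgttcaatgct
Cyp8b1: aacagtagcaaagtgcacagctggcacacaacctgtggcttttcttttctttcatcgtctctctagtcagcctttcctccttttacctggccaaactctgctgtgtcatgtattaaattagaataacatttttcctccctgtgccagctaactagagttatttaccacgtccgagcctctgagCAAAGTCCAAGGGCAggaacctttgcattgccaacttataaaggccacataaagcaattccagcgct
In the Nr0b2 window, CAAGGCCA fits the half-site of the receptor LRH-1 (CAAGGNCA) and overlaps CACGTG, the E-box that the clock proteins CLOCK and BMAL1 can bind. These 2 motifs occurred in 5.53% and 6.02% of all 32851 windows. Abcb11 held GGCCATTGACC, a match to a relaxed form of the inverted repeat that FXR binds (3.46% of windows), between 62 and 52 bases before the start. It overlapped a match to the nuclear receptor half-site AGGTCA, which occurred in 14.0% of windows and in 10 of the 22 genes. In the Cyp8b1 window a match to the HNF4A element CAAAGNCCA (1.70% of windows) overlapped a further LRH-1 half-site. The D-box TTANGTAA and the recognition element of small MAF proteins matched in 0 of the 22 genes (2.06% and 0.353% of all windows). These matches describe letters in the windows and say nothing of binding in these livers.

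Library totals ranged from 68357478 to 112566641 counts, and the 32 genes took 0.701% to 0.884% of the counts in each library. Levels are given as CPM, the usual count rate of a gene relative to its library's size, here scaled by trimmed mean factors (TMM). Alb, the defining hepatocyte transcript, averaged 51492 CPM on normal chow and 57004 CPM on PS-MP chow. The 9 hepatocyte markers had a median log2 fold change of 0.05. Over all 17662 genes tested, the median log2 fold change was 0.02, 47.2% of genes were below zero, and edgeR's quasi-likelihood test called 2 (0.0113%). Ribosomal 18S RNA took 1.15% to 11.2% of counts in control and 0.388% to 1.14% in PS-MP; leaving it out of the fit kept the count of bile acid genes below zero at 26. The 6 adipocyte markers summed to 18.2 to 62.0 CPM on normal chow and 7.03 to 24.3 CPM on PS-MP chow. Of these, Cidec, which fat-laden hepatocytes also express, was at 13.8 to 58.1 CPM on normal chow and 4.69 to 17.9 CPM on PS-MP chow. Adipoq, Plin1 and Lep had at most 0.479 CPM in any library. Plin1 and Lep were counted only in PS-MP replicate 3 (41 and 10 times). Adipoq was counted 20 times there, 2 times in control replicate 3 and in no other library. The part of such cells in the results was not tested.

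No bile acid gene passed the test over all genes for a change with PS-MP chow. With edgeR, 0 of the 30 genes passed (smallest adjusted p = 0.849), against 0.0113% of all genes. DESeq2 and limma-voom also called 0 of the 30, against 1.06% and 0.00566% of all genes. At an unadjusted p under 0.05, edgeR had 2 of the 30 genes lower and 0 higher, against 2.58% and 2.8% of all genes tested (5.38% in either direction). Fitted log2 fold changes, PS-MP minus control, were below zero for 26 of the 30 genes, but for 17 of 30 with scaling by library size alone. Their median was -0.23 and their range -0.91 to 0.52. Scaling by library size alone raised the median of all genes by 0.214 and put 19.8% of them below zero, against 47.2%. The number of bile acid genes below the median of all genes was 26 under either scaling. With a library left out, that number was 21 (without PS-MP replicate 1) to 25 (without control replicate 1 or PS-MP replicate 2). The number below zero was then 19 (without control replicate 2, 45.8% of all genes) to 25 (without PS-MP replicate 2, 50% of all genes). The 95% interval lay inside a 2-fold change for 16 of the 30 genes, which is close to the 53.5% found over all genes. No interval lay wholly beyond 2-fold.

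**Figure D1:**
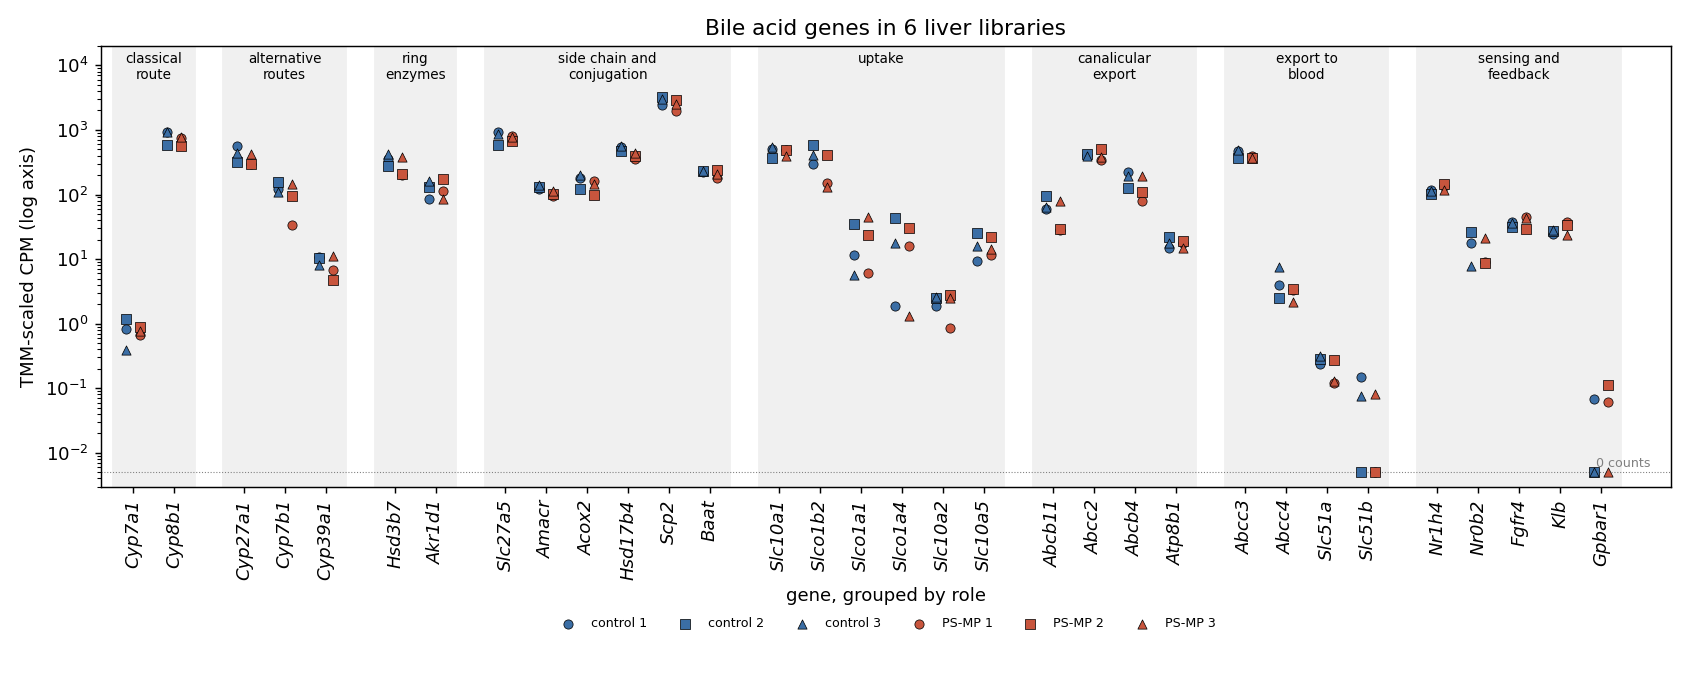
Level of the 32 bile acid genes in each library as TMM-scaled CPM on a log axis, grouped by role; blue points are the 3 control libraries, red points the 3 PS-MP libraries, and the dotted line marks 0 counts. Cyp7a1 lies between 0.388 and 1.17 CPM in all 6 libraries, and Slco1a4 spreads from 1.31 to 43.2 CPM. CPM are not per length, so heights of different genes are not to be compared.

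The classical route was measured with very different depth at its first and its branch enzyme. Cyp7a1, the rate-limiting enzyme of the route, was counted 60, 71 and 41 times on normal chow and 55, 78 and 67 times on PS-MP chow. These are 0.826, 1.17 and 0.388 CPM against 0.668, 0.883 and 0.782. The PS-MP values all fell within the control range, and control replicate 3 was the lowest library. Its log2 fold change was -0.02 (SE 0.42, 95% interval -1.03 to 0.996, edgeR adjusted p = 1), so a 2-fold decrease lay just inside the interval. Cyp8b1, the hydroxylase that sets the share of cholic acid, measured 925, 594 and 921 CPM under normal chow, compared with 761, 561 and 782 CPM under PS-MP. Control replicate 2 and PS-MP replicate 2 were its low libraries, and the diets overlapped. For Cyp8b1 the fitted log2 fold change was -0.21 (interval -0.76 to 0.33, edgeR adjusted p = 1).

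Enzymes of the alternative routes had lower fitted levels in PS-MP, though none passed the test. Cyp27a1, the mitochondrial hydroxylase that opens the alternative route, had 557, 320 and 444 CPM on normal chow against 292, 301 and 422 CPM on PS-MP chow. PS-MP replicates 1 and 2 lay below every control library and PS-MP replicate 3 did not. Its log2 fold change was -0.38 (interval -0.97 to 0.21, edgeR adjusted p = 0.984), with -0.17 when control replicate 1 was left out and -0.58 when PS-MP replicate 3 was. Cyp7b1, which hydroxylates the oxysterols made by Cyp27a1, measured 121, 155 and 110 CPM under normal chow, compared with 34.2, 93.3 and 145 CPM under PS-MP. PS-MP replicate 1 held the lowest value, 4.54-fold under the highest library. The log2 fold change of Cyp7b1 was -0.50 (interval -1.64 to 0.64) and was -1.03 when PS-MP replicate 3 was left out and -0.11 when PS-MP replicate 1 was. Cyp39a1, an oxysterol hydroxylase of a further route, ranged from 8.11 to 10.8 CPM on normal chow and from 4.76 to 11.1 CPM on PS-MP chow (log2 fold change -0.37). Leaving out PS-MP replicate 2 gave Cyp39a1 -0.12 and leaving out PS-MP replicate 3 gave -0.77. The median of the 3 genes was -0.38, against 0.02 over all genes tested.

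Both routes share the ring enzymes Hsd3b7 and Akr1d1, which differed in their fitted change. Hsd3b7, the dehydrogenase of the sterol ring, had 358, 278 and 417 CPM on normal chow against 204, 211 and 375 CPM on PS-MP chow. As for Cyp27a1, PS-MP replicates 1 and 2 were below all controls and PS-MP replicate 3 was among them (log2 fold change -0.41, interval -1.09 to 0.26). For Hsd3b7 the value was -0.77 when PS-MP replicate 3 was dropped and -0.26 when PS-MP replicate 1 was. Reads of Hsd3b7 may include those of Gm49388, which overlaps it on the same strand in an earlier annotation and had 148 to 770 counts where Hsd3b7 had 16809 to 44082. Akr1d1, the reductase that gives bile acids their bent ring, ranged from 84.5 to 161 CPM on normal chow and from 84.7 to 174 CPM on PS-MP chow. The log2 fold change of Akr1d1 was -0.01 (interval -0.80 to 0.78), and a processed pseudogene on its strand, Gm7463, held 28 to 397 counts against 6139 to 17056 of Akr1d1.

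Side chain shortening in peroxisomes held the 2 genes of the set with an unadjusted p under 0.05. Amacr, the racemase that prepares the side chain for oxidation, measured 123, 131 and 139 CPM under normal chow, compared with 93.6, 101 and 112 CPM under PS-MP. All PS-MP libraries were below all control libraries. Its fitted level was 22.2% lower (log2 fold change -0.36, SE 0.12, interval -0.65 to -0.07), with an unadjusted p of 0.0219 and an edgeR adjusted p of 0.849. Hsd17b4, the bifunctional enzyme of the next steps, had 541, 470 and 558 CPM on normal chow against 357, 397 and 445 CPM on PS-MP chow. Here too the diets did not overlap, with control replicate 2 and PS-MP replicate 3 nearest to each other. Its fitted level was 23.6% lower (log2 fold change -0.39, SE 0.14, interval -0.73 to -0.05), with an unadjusted p of 0.0318 and an edgeR adjusted p of 0.902. For both genes the interval excluded a 2-fold change.

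Amacr and Hsd17b4 were the only bile acid genes whose libraries did not overlap between diets. That is 2 of 30, against 11.2% of all genes tested in either direction, with 2 lower against 4.99% and 0 higher against 6.24%. With control replicate 2 or PS-MP replicate 3 left out, the count was 10 each time, against 29.2% and 23.8% of all genes. It was 6 when control replicate 1 was dropped and 8 when PS-MP replicate 2 was, against 19.6% and 20.0% of all genes. Dropping PS-MP replicate 1 gave 3 (17.9% of all genes) and dropping control replicate 3 gave 2 (17.3%). Leaving out a library moved the fitted change by over 1.5 times, or past zero, for 27 of the 30 genes; the other 3 were Amacr (-0.44 to -0.30), Hsd17b4 (-0.49 to -0.31) and Nr1h4 (0.17 to 0.32).

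The other 4 genes of the side chain overlapped between diets. Acox2, the oxidase of the first peroxisomal step, averaged 168 ± 39.9 CPM on normal chow and 134 ± 31.8 CPM on PS-MP chow (SD, n = 3 each; log2 fold change -0.32). Scp2, whose longer product is the thiolase that cuts the side chain, averaged 2879 ± 379 CPM and 2453 ± 476 CPM (log2 fold change -0.23). Slc27a5, which activates bile acids with coenzyme A, averaged 782 ± 177 CPM and 753 ± 79.1 CPM (log2 fold change -0.06). Baat, which joins bile acids to taurine, was nearly flat over the controls at 224 to 230 CPM and ranged from 183 to 240 CPM in PS-MP (log2 fold change -0.11, interval -0.43 to 0.22). All 6 side chain and conjugation genes had intervals inside 2-fold. Their median log2 fold change was -0.28, and -0.07 with library size alone.

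**Figure D2:**
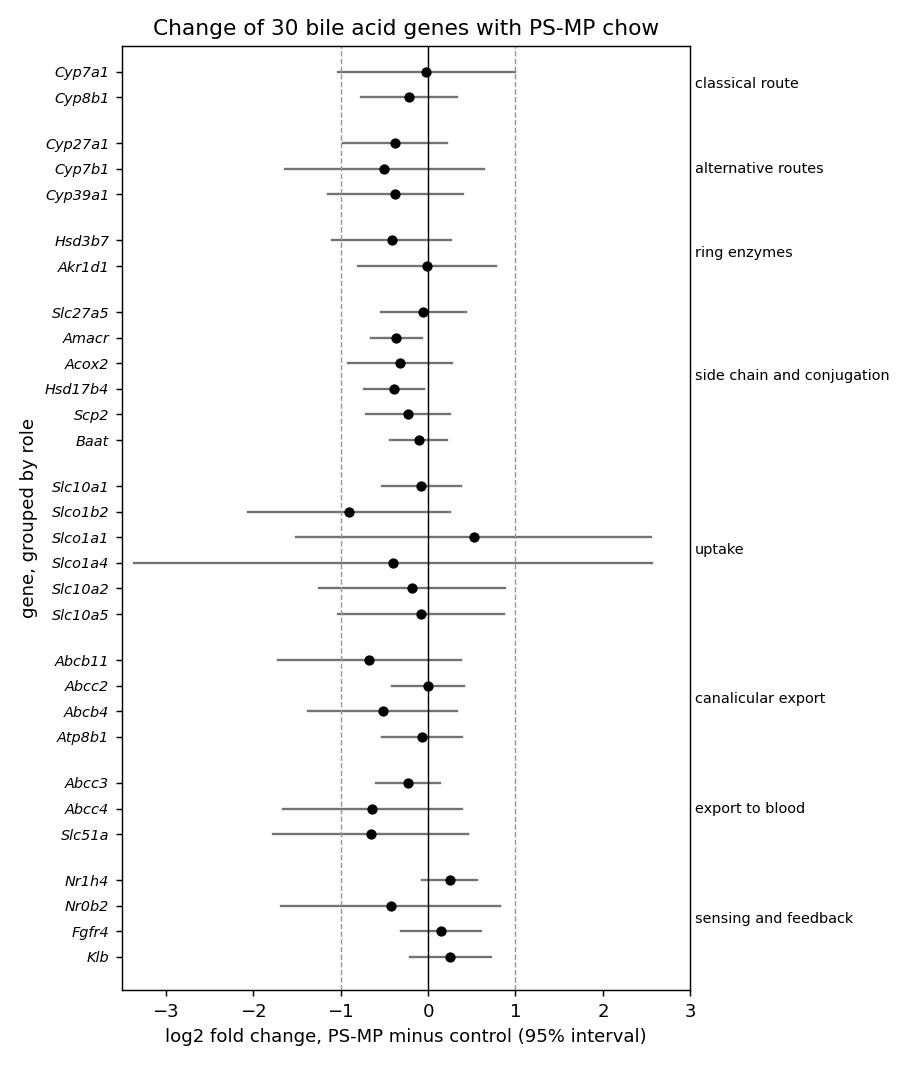
Fitted log2 fold change, PS-MP minus control, with its 95% interval for the 30 tested bile acid genes, grouped by role; dashed lines mark a 2-fold change. The intervals of Amacr and Hsd17b4 lie below zero, those of the other 28 genes hold zero, and the widest, of Slco1a4, runs from -3.37 to 2.57.

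Other enzymes of bile acid and oxysterol metabolism gave a similar spread. Of 16 such genes, 15 were tested, and edgeR called 0 (0.0113% of all genes), with 0 at an unadjusted p under 0.05 (5.38%). DESeq2 and limma-voom called 0 as well, against 1.06% and 0.00566% of all genes. Their median log2 fold change was -0.26, with 13 below zero. Cyp2a12, a further bile acid hydroxylase of mouse liver, measured 445, 390 and 465 CPM under normal chow, compared with 340, 354 and 374 CPM under PS-MP (log2 fold change -0.28, edgeR adjusted p = 0.923). Its diets did not overlap, as for 2 of the 15 genes against 11.2% of all genes. Both were lower in PS-MP, against 4.99% of all genes in that direction. Cyp46a1, a sterol hydroxylase best known from neurons, had 7.73, 5.96 and 7.60 CPM on normal chow against 22.8, 13.3 and 6.28 CPM on PS-MP chow (log2 fold change 0.99, edgeR adjusted p = 0.923).

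Uptake carriers split into a steady main carrier and several carriers with wide spread. Slc10a1 encodes NTCP, the sodium-coupled carrier that brings conjugated bile acids into hepatocytes. It measured 512, 373 and 552 CPM under normal chow, compared with 481, 489 and 394 CPM under PS-MP. All PS-MP values fell within the control range, and the log2 fold change was -0.07 (interval -0.52 to 0.37, edgeR adjusted p = 1). Slco1b2, a sodium-independent carrier of bile acids and drugs, had 301, 580 and 411 CPM on normal chow against 150, 408 and 130 CPM on PS-MP chow. PS-MP replicates 1 and 3 were below every control and PS-MP replicate 2 was not. Its log2 fold change, -0.91 (SE 0.48, interval -2.06 to 0.25, edgeR adjusted p = 0.943), was the lowest of the 30, with -0.64 to -1.62 when a library was left out.

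Slco1a1 and Slco1a4, a pair of related organic anion carriers whose similar sequences can share reads, varied more within diets than between them. Slco1a4 measured 1.90, 43.2 and 17.8 CPM under normal chow, compared with 16.2, 30.1 and 1.31 CPM under PS-MP. Each diet held a library near the bottom, control replicate 1 and PS-MP replicate 3, and the spread within a diet was 22.7-fold and 23.0-fold. A spread over 16-fold within a diet was found for 5.38% of all genes tested. Slco1a1, a carrier that is higher in male than in female mouse liver, had 11.6, 34.6 and 5.67 CPM on normal chow against 6.12, 23.2 and 45.0 CPM on PS-MP chow. Control replicate 3 and PS-MP replicate 1 were its low libraries, which are not those of Slco1a4. Their log2 fold changes were 0.52 for Slco1a1 (interval -1.51 to 2.55) and -0.40 for Slco1a4, and both changed sign when PS-MP replicate 3 was left out (-0.25 and 0.13). Slco1a4 did so too when control replicate 2 was left out (0.68).

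Slc10a2, the apical carrier of ileum and bile duct cells, ranged from 1.90 to 2.59 CPM on normal chow and from 0.850 to 2.79 CPM on PS-MP chow (log2 fold change -0.18). Among markers of bile duct cells, Krt19 was at 0.262 to 1.17 CPM and Cftr had 0 counts in 2 control libraries. Summed over 10 such markers, levels were 29.8 to 44.9 CPM on normal chow and 25.7 to 40.4 CPM on PS-MP chow. Slc10a5, an orphan relative of NTCP, averaged 16.9 ± 8.16 CPM on normal chow and 15.96 ± 5.12 CPM on PS-MP chow (SD, n = 3 each). For the 6 uptake genes the median log2 fold change was -0.13, but 0.11 without control replicate 2 and 0.09 with library size alone. In bulk tissue, fewer cells of a type and less RNA per cell cannot be told apart.

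Among the genes of export into bile, Abcb11 and Abcb4 were low in 2 of the 3 PS-MP libraries, and none passed the test. Abcb11 encodes BSEP, the pump that moves bile salts into the canaliculus. It measured 59.9, 93.8 and 64.3 CPM under normal chow, compared with 28.5, 29.2 and 79.4 CPM under PS-MP. PS-MP replicates 1 and 2 were under every control, while PS-MP replicate 3 was higher than 2 of the 3 controls. The log2 fold change was -0.67 (SE 0.44, interval -1.71 to 0.38, edgeR adjusted p = 0.983). It was -1.35 when PS-MP replicate 3 was left out (edgeR adjusted p = 0.405) and -0.41 when PS-MP replicate 1 was. Abcb4, the floppase that supplies phosphatidylcholine to bile, had 226, 128 and 192 CPM on normal chow against 80.6, 110 and 190 CPM on PS-MP chow. Again PS-MP replicates 1 and 2 were lowest (log2 fold change -0.52, interval -1.37 to 0.33). Abcb4 came to -0.95 when PS-MP replicate 3 was dropped and to -0.27 when PS-MP replicate 1 was. Gm17936, a processed pseudogene on the strand of Abcb4, had 17 to 195 counts.

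Abcc2, which exports conjugated organic anions such as bilirubin glucuronide, averaged 410 ± 17.7 CPM on normal chow and 409 ± 84.5 CPM on PS-MP chow (SD, n = 3 each). For Abcc2 the fitted log2 fold change came to -0.0044 (interval -0.41 to 0.41). Atp8b1, a lipid flippase that keeps the canalicular membrane stable, averaged 18.0 ± 3.51 CPM and 17.2 ± 2.22 CPM (log2 fold change -0.06, interval -0.52 to 0.39). Changes of 2-fold in either direction lay outside the intervals of Abcc2 and Atp8b1. For Abcb11 and Abcb4, a 2-fold decrease lay inside the interval and a 2-fold increase outside it.

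Carriers that return bile acids to blood ranged from abundant to barely counted. Abcc3, a pump known to be induced in cholestasis, averaged 439 ± 67.8 CPM on normal chow and 375 ± 21.2 CPM on PS-MP chow (SD, n = 3 each; log2 fold change -0.23, interval -0.60 to 0.14). Abcc4, another pump of this membrane, measured 4.04, 2.497 and 7.42 CPM under normal chow, compared with 3.34, 3.50 and 2.15 CPM under PS-MP. Its log2 fold change of -0.64 became -0.12 without control replicate 3, the highest library. Slc51a and Slc51b encode the subunits of the transporter OST, which is known mainly from the ileum. Slc51a was counted 17, 17 and 33 times on normal chow and 10, 24 and 11 times on PS-MP chow. Pcyt1a, which overlaps Slc51a on the opposite strand in the earlier annotation, had 4381 to 10010 counts, and with the strand setting not given the source of the Slc51a counts is uncertain. Slc51b was counted 11, 0 and 8 times on normal chow and 0, 0 and 7 times on PS-MP chow, and was not tested. Rasl12, on the opposite strand of Slc51b in that annotation, had 5 to 23 counts. A count of 0 allows up to 3 counts, here 0.0340 to 0.0493 CPM.

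Among the sensing and feedback genes, the receptors had fitted values above zero and the repressor Nr0b2 below. Nr1h4, the gene of FXR, had 117, 101 and 113.2 CPM on normal chow against 133, 144 and 115 CPM on PS-MP chow. Only PS-MP replicate 3 overlapped the controls, lying just under control replicate 1. The log2 fold change of Nr1h4 was 0.25 (SE 0.13, interval -0.07 to 0.56, edgeR adjusted p = 0.944). Klb had 0.26 (interval -0.21 to 0.72), at 24.4 to 28.7 CPM in control and 23.7 to 37.7 CPM in PS-MP. Fgfr4 measured 37.7, 31.9 and 35.6 CPM under normal chow, compared with 44.9, 28.9 and 42.6 CPM under PS-MP (log2 fold change 0.15, interval -0.31 to 0.61). PS-MP held both the highest and the lowest Fgfr4 library. Intervals of these 3 receptor genes lay inside 2-fold.

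Nr0b2, the gene of the repressor SHP, had 17.9, 26.4 and 7.70 CPM on normal chow against 9.08, 8.66 and 20.8 CPM on PS-MP chow. Both diets held high and low libraries: control replicate 3 was with PS-MP replicates 1 and 2 at the low end. The log2 fold change of -0.43 (interval -1.68 to 0.83, edgeR adjusted p = 1) was 0.0080 when control replicate 2 was left out and -0.98 when PS-MP replicate 3 was. Gpbar1, the bile acid receptor of the cell surface, was counted 5, 0 and 0 times on normal chow and 5, 10 and 0 times on PS-MP chow and was not tested. It is known from Kupffer cells among others, whose 8 markers had a median log2 fold change of 0.42, with 5 of 8 higher without overlap between diets (6.24% of all genes), and summed to 110 to 146 CPM on normal chow and 169 to 192 CPM on PS-MP chow. Of those, Marco, a scavenger receptor, was at 1.54 to 3.50 CPM on normal chow and 8.42 to 22.9 CPM on PS-MP chow. With edgeR's quasi-likelihood fit, Marco had an unadjusted p of 0.0040 and an edgeR adjusted p of 0.767. Adgre1, the F4/80 antigen, was at 5.21 to 7.85 CPM on normal chow and 8.46 to 13.7 CPM on PS-MP chow. EdgeR called 0 of the 8 (0.0113% of all genes), limma-voom 0 (0.00566%) and DESeq2 1 (1.06%). The gene called by DESeq2 was Marco (DESeq2 adjusted p = 0.00266, limma-voom adjusted p = 0.810). Clec4f, a defining marker of these cells, was at 24.2 to 41.0 CPM in every library. The part of these cells in the results was not tested.

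**Figure D3:**
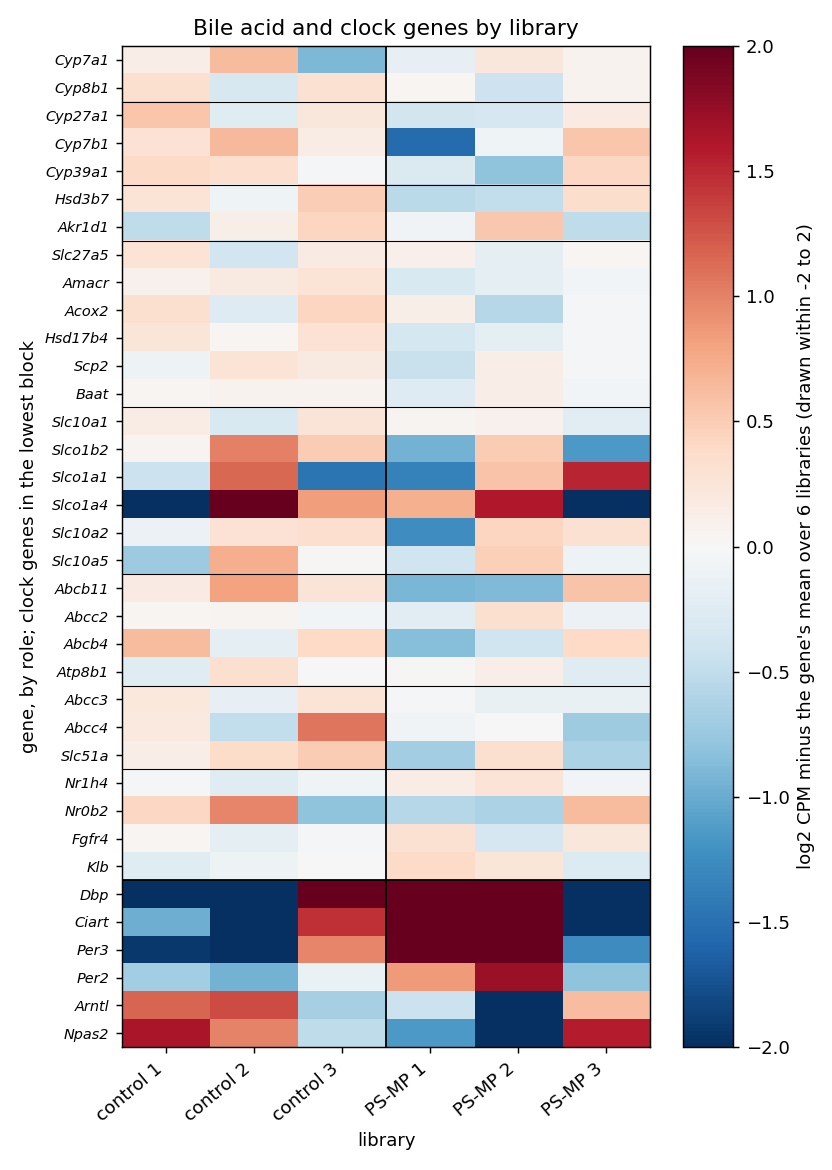
Log2 CPM of 30 bile acid genes, and of 6 clock genes in the lowest block, minus each gene's mean over the 6 libraries; columns are libraries, red is above and blue below the mean, and colours end at -2 and 2. Nr0b2 is blue in control 3, PS-MP 1 and PS-MP 2, the libraries in which Dbp is red.

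The libraries low in Nr0b2 also differed from the others in clock genes. Dbp, a clock output gene with a strong daily rhythm, measured 2.01, 2.23 and 44.3 CPM under normal chow, compared with 35.7, 78.2 and 0.911 CPM under PS-MP. Arntl, the gene of BMAL1, ran the other way at 11.9, 13.1 and 3.37 CPM on normal chow against 3.96, 1.33 and 8.14 CPM on PS-MP chow. The 3 libraries lowest for Nr0b2 were the 3 highest for Dbp. Abcb11 was lowest in PS-MP replicates 1 and 2 of these, but control replicate 3 was near control replicate 1. A clock index, the mean log2 CPM of Dbp, Ciart and Per3 minus that of Arntl and Npas2, was chosen after the data were seen. With it as a covariate, the log2 fold change of Nr0b2 moved from -0.43 to 0.20, that of Abcb11 from -0.67 to -0.42 and that of Cyp7b1 from -0.50 to -0.27. Bile acid genes below zero then numbered 24 of 30, and 0 passed. The fitted change became larger in size for 17 of the 30 genes and smaller for 13. It grew from -0.40 to -2.39 for Slco1a4, from -0.91 to -1.37 for Slco1b2, from 0.52 to 1.303 for Slco1a1, from -0.64 to -0.96 for Abcc4, from -0.66 to -0.94 for Slc51a and from -0.01 to -0.36 for Akr1d1. The median of export to blood went from -0.64 to -0.94. The labels give no time of day of sampling, and its part in these values was not tested.

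Library by library, PS-MP replicate 1 stood lowest for the set. There 21 of 30 genes were below their own 6-library mean, against 15 in PS-MP replicate 2, 17 in PS-MP replicate 3 and 8 to 12 in the controls. It held the lowest library for 12 of the 30 genes, where the others held 3 or 4 each. Over all genes tested, 44.5% to 49.8% were below their mean in each library. Averaged over the 13 synthesis genes, the deviation was -0.31 in PS-MP replicate 1, -0.17 in PS-MP replicate 2 and 0.07 in PS-MP replicate 3, on the log2 scale. The controls lay at 0.18, 0.08 and 0.16, so PS-MP replicate 3 (0.071) lay just under the lowest control, replicate 2 (0.077). The same average over all genes tested differed more between these libraries, at 0.063 for control replicate 2 against 0.020 for PS-MP replicate 3. Measured from that average, PS-MP replicate 3 was not below control replicate 2, and the diets overlapped for synthesis. The 7 tested export genes gave -0.39, -0.10 and -0.13 in PS-MP and 0.16, 0.10 and 0.35 in control.

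**Figure D4:**
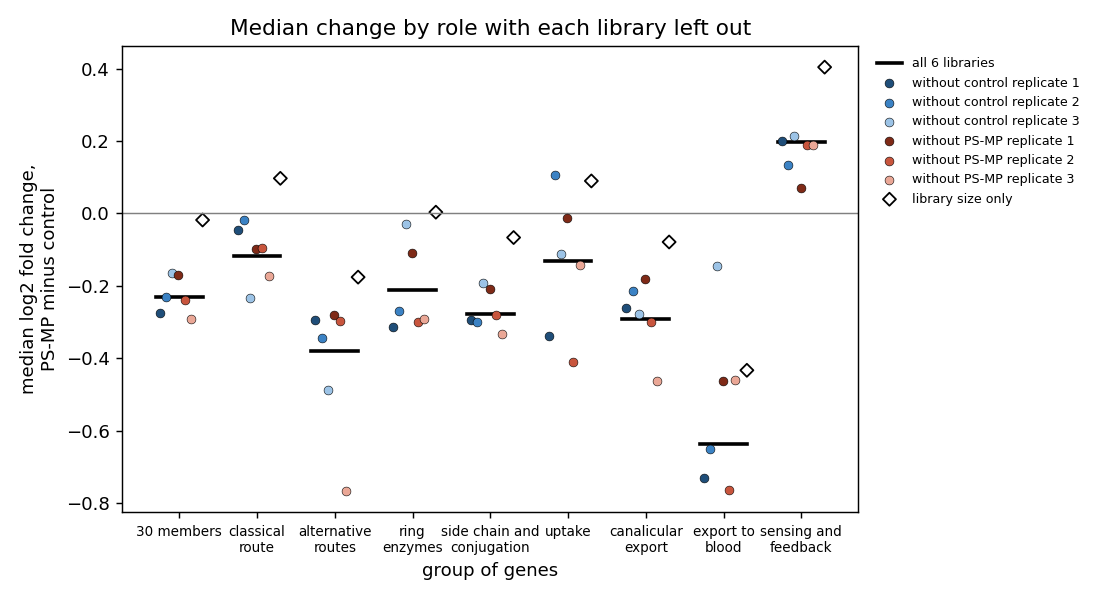
Median log2 fold change, PS-MP minus control, of all 30 bile acid genes and of each role; black bars use all 6 libraries, points leave out 1 library each, and diamonds scale by library size alone. The medians of synthesis and export roles stay below zero in each fit that leaves out a library, and that of uptake does not; with library size alone those of the classical route, ring enzymes and uptake lie above zero.

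Compared by role, the medians of synthesis and export genes lay below zero (classical route and ring enzymes above with library size alone) and that of feedback genes above. The difference between roles was not tested. Medians were -0.12 for the classical route (2 genes), -0.21 for ring enzymes (2), -0.38 for the alternative routes (3) and -0.28 for side chain and conjugation (6). Those for transport were -0.13 for uptake (6 genes), -0.29 for canalicular export (4) and -0.64 for export to blood (3). The last is the value of Abcc4, while Abcc3, the abundant gene of that role, was at -0.23. With the 1 CPM filter, which left out Slc51a, the median of export to blood was -0.41. Feedback genes (4) had 0.20, which was 0.07 without PS-MP replicate 1. Leaving out control replicate 3 moved export to blood to -0.15 and ring enzymes to -0.03. The alternative routes moved to -0.77 when PS-MP replicate 3 was left out and to -0.28 when PS-MP replicate 1 was. Scaling by library size alone put the medians of the classical route (0.10), ring enzymes (0.0034) and uptake (0.09) above zero.

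Ratios of 2 genes within a library do not depend on scaling, and 4 were compared. The log2 ratio of Cyp7a1 to Cyp27a1, the first enzymes of the 2 routes, averaged -9.22 ± 1.04 on normal chow and -8.75 ± 0.33 on PS-MP chow (SD, n = 3 each), with a two-sided exact permutation p of 0.5 (adjusted 0.667). The ratio of the uptake carrier Slc10a1 to the export pump Abcb11 was 3.10, 1.99 and 3.10 on normal chow against 4.08, 4.07 and 2.31 on PS-MP chow. PS-MP replicates 1 and 2 were above all controls, and the exact permutation p was 0.3 (adjusted 0.667). The ratio of Nr0b2 to Cyp7a1 was 4.43, 4.50 and 4.31 in control, a spread of 0.10 (SD, n = 3), and 3.77, 3.29 and 4.74 in PS-MP, with an exact permutation p of 0.4 (adjusted 0.667). The ratio of Cyp8b1 to Cyp7a1 averaged 10.1 ± 1.11 on normal chow and 9.81 ± 0.44 on PS-MP chow (SD, n = 3; exact permutation p = 0.8, adjusted 0.8). With 3 libraries against 3 the smallest p possible is 0.1, so this design cannot reach 0.05 for a single ratio.

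Regulators of these genes that lie outside the set were compared from a list of 20, of which 8 had a log2 fold change below zero and 12 above (median 0.05). With edgeR 0 passed (0.0113% of all genes), while 2 had an unadjusted p under 0.05, both higher (2.8% of all genes). Mafg, a small MAF protein known as an FXR-induced repressor of bile acid synthesis genes, had 13.7, 11.1 and 10.8 CPM on normal chow against 20.3, 23.7 and 24.05 CPM on PS-MP chow. All PS-MP libraries were above all controls (log2 fold change 0.94, SE 0.16, interval 0.56 to 1.31, edgeR adjusted p = 0.767). DESeq2 called Mafg (adjusted p = 0.000739), 1 of the 20 regulators, against 1.06% of all genes. Limma-voom called 0 of the 20, against 0.00566% of all genes (limma-voom adjusted p = 0.732 for Mafg). Diets did not overlap for 2 of the 20, against 11.2% of all genes. Both were higher in PS-MP, against 6.24% of all genes in that direction.

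Genes of cholesterol supply and biliary sterol export numbered 10 in the files, of which 9 were tested, 4 below zero and 5 above. EdgeR, DESeq2 and limma-voom called 0 of them, against 0.0113%, 1.06% and 0.00566% of all genes. With edgeR, 1 had an unadjusted p below 0.05, a lower one, against 2.58% of all genes. Soat2, which esterifies cholesterol in hepatocytes, had 6.89, 16.9 and 17.3 CPM on normal chow against 3.87, 7.49 and 5.62 CPM on PS-MP chow. Only PS-MP replicate 2 reached into the control range (log2 fold change -1.27, interval -2.26 to -0.29, edgeR adjusted p = 0.831, DESeq2 adjusted p = 0.176).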

How the data were processed

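The labels describe poly(A)-selected RNA and a directional library kit for liver RNA. Each library's deposited file holds unnormalised whole-number read counts per gene, per the file headers and the values, and the series-wide table deposited by the authors holds the same counts. The submitters' processing notes name bcl2fastq and GRCm39, with aligner, counter, annotation and strand setting not given in the sources used here.

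Where a symbol stood on several rows (67 symbols), its counts were added up. In R 4.3.3, edgeR 4.0.16 (filterByExpr by diet, TMM scaling) tested 17662 genes by quasi-likelihood F test, diet as the only term, with Benjamini-Hochberg adjustment over all of them and a threshold of 0.05. Intervals use the standard error and 6.63 moderated degrees of freedom. Levels are CPM of 3 libraries per diet, whose totals were 68357478 to 112566641 counts; limits on counts of 0 cover counting error only. Log2 CPM used a prior count of 2. Ratios were tested by exact permutation.

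Members, lists, tests and naming rule were chosen with earlier results of these data known. Named with all values were genes with unadjusted p under 0.05, no overlap or a spread over 16-fold, and 8 fixed genes; other genes given by library, and the motifs, were chosen after values were seen. From the lists of regulators, enzymes, sterol genes and Kupffer cell markers, the 2 genes with the smallest p were named, except where a gene is not reported here; Clec4f, Cidec and the clock genes were singled out after values were seen. Alternatives were other scalings and filters, DESeq2 1.42.0, limma-voom (limma 3.58.1), a replicate block, removal of 18S RNA, leaving out each library and a clock covariate. The edgeR fit was tested on simulated data. No coordinates were converted between builds, and overlapping genes were looked up in a GRCm38 annotation.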

Additional observations from a re-analysis of the deposited data

How the results depend on the processing

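Across 16 alternatives, 0 of the 30 bile acid genes passed in any fit. The number of all genes called was 2 with edgeR, 187 with DESeq2, 1 with limma-voom, 0 with the replicate block, 1 with the clock index (added after the data were seen) and 0 to 4 with a library left out. Deviations from the diet means correlated at 0.108, 0.139 and -0.128 for libraries of equal replicate number, and at -0.185 to 0.097 for unequal numbers. With 3 libraries per diet, these values cannot decide whether libraries of equal number were paired, and the labels state no pairing. With library size alone, 17 bile acid genes were below zero, 1 did not overlap between diets, and medians were -0.018 for all 30, 0.097 for the classical route, -0.067 for side chain genes and 0.404 for feedback. Genes without overlap numbered 2 to 10 with a library left out, and the median of export to blood was -0.76 to -0.15. The cause of these moves was not tested.

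Signs changed for genes near zero, and also for Slco1a1, Slco1a4 and Nr0b2, whose edgeR log2 fold changes over all 6 libraries were 0.52, -0.40 and -0.43. With library size alone log2 fold changes were 0.208 for Cyp7a1, 0.214 for Akr1d1, 0.145 for Slc27a5, 0.111 for Baat, 0.132 for Slc10a1, 0.048 for Slc10a2, 0.158 for Slc10a5, 0.215 for Abcc2 and 0.157 for Atp8b1. Upper quartile scaling gave 0.0056 for Cyp7a1, 0.0067 for Akr1d1 and 0.016 for Abcc2; the 1 CPM filter gave 0.0059 for Akr1d1 and 0.011 for Abcc2, and no filter 0.0010 for Abcc2. Limma-voom gave 0.189 for Cyp7a1 and 0.0036 for Slc10a5, the replicate block 0.089 for Cyp7a1, and the clock index 0.283 for Cyp7a1 and 0.199 for Nr0b2. With a library left out, ranges that crossed zero were -0.35 to 0.36 for Cyp7a1, -0.33 to 0.21 for Akr1d1, -0.23 to 0.071 for Slc27a5, -0.23 to 0.042 for Slc10a1, -0.25 to 1.52 for Slco1a1, -1.27 to 0.68 for Slco1a4, -0.46 to 0.19 for Slc10a2, -0.37 to 0.34 for Slc10a5, -0.18 to 0.0998 for Abcc2, -0.19 to 0.089 for Atp8b1 and -0.98 to 0.0080 for Nr0b2. The difference in the log2 ratio of Cyp7a1 to Cyp27a1 ranged from -0.0059 to 1.03 and that of Cyp8b1 to Cyp7a1 from -0.86 to 0.25. Depth limits Cyp7a1 (41 to 78 counts per library), Slc51a (10 to 33), Slc51b (0 to 11) and Gpbar1 (0 to 10).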
